A study of Mus musculus with 12 samples.

Results

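The mitochondrial carriers and uncoupling proteins were followed in proximal tubule (PT) cells with and without the type II TGF-β receptor, TβRII. The members were the protein-coding genes whose symbol was Slc25a with a number, or Ucp1, Ucp2 or Ucp3, matched by Ensembl identifier. There were 50 of them among 25514 genes counted. RNA-seq libraries had been made in triplicate from 4 groups of cultured mouse PT cells, 12 libraries in all: TβRII flox/flox PT cells and TβRII-/- PT cells, each untreated or treated with H2O2 for 24 h. The dose is 200 mM in the sample labels, whereas the methods of the study give the unit as μM. All groups came from male mice that carried floxed Tgfbr2 alleles and the thermolabile T antigen of the Immorto-mouse. The cells were grown at 33 °C with interferon γ and moved to 37 °C without it for 5 days before the experiment. The TβRII-/- cells were made from the TβRII flox/flox cells in culture with an adenovirus that carried Cre. Each genotype was therefore 1 cell line, and the deletion cannot be told apart from other differences between the lines. H2O2 was given in serum-free medium, so that the loss of serum and the oxidant cannot be told apart. The p-values measure the spread between the libraries of a group, which were not said to come from separate animals.

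Mitochondrial carriers are small membrane proteins of the inner mitochondrial membrane, each built from tandem repeats of a pair of helices. They exchange ADP for ATP, import phosphate, move citrate, amino acids and acylcarnitines, and bring in the cofactors that the matrix enzymes need. The uncoupling proteins belong to the same family. Ucp1 lets protons leak back into the matrix in brown fat and so makes heat, while Ucp2 and Ucp3 are linked to the export of metabolites and to the control of oxidant formation. PT cells depend on mitochondrial ATP for the reabsorption of solutes, which is why the family is of interest in this cell.

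The family shares a signature at the end of the first helix of each repeat: a proline, any residue, an aspartate or glutamate, any pair of residues, then a lysine or arginine. In the canonical coding sequences of the 50 members, which ran from 265 to 677 codons, 30 members held the codons of this pattern at 3 places, 12 at 2, 5 at 1 and 3 at none. The first copy is printed for the members on which the results turn, from the GENCODE transcripts of GRCm39, 5′ to 3′, with the codons of the signature in capitals.
Ucp2: actttcCCTCTGGATACCGCCAAGgtccgg
Ucp3: acttttCCCCTGGACACCGCCAAGgtccgt
Slc25a48: gggtacCCTCTGGACACAGTCAAGactcgc
Slc25a45: gggcacCCATTCGACACTGTAAAGgtgcgg
Slc25a4: gtcgccCCGATCGAGAGGGTCAAActgctg
Slc25a5: gtagcaCCCATCGAGAGGGTCAAGctgctg
Slc25a20: gggcacCCCCTGGACACGGTCAAGgtccga
Ucp2 and Ucp3, which lie next to each other on chromosome 7 with 6904 bases between them, had identical bases at 75.5% of 918 aligned coding positions. The values were 77.5% of 897 for Slc25a4 and Slc25a5, and 62.8% of 854 for Slc25a45 and Slc25a48. In contrast, 69.8% of the Slc25a5 transcript was at least 95% identical to 4 other annotated genes, Gm13798, Gm5529, Gm5560 and Gm71945, so the counts of Slc25a5 are uncertain.

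Gene totals ran from 15870155 to 20857618 counts per library, and the 50 members together held 0.184% to 0.293% of them. This share was 0.184% to 0.217% in the 6 TβRII flox/flox libraries and 0.275% to 0.293% in the 6 TβRII-/- libraries, with no overlap. The share is a sum, in which members with many counts or a wide change weigh most. From untreated TβRII flox/flox to untreated TβRII-/- cells, mean normalized counts went from 6937 to 9209 for Slc25a4. They went from 3571 to 6483 for Ucp2 and from 319 to 2432 for Slc25a48. The median log2 fold change over the 41 members tested was 0.17, with 32 of them above 0. Tgfbr2 was counted in every library, at 7562 to 9248 normalized counts in untreated TβRII flox/flox cells and 6358 to 6782 in untreated TβRII-/- cells, and at 13275 to 13918 against 7116 to 7311 after H2O2. Counts over a whole transcript do not resolve a deleted exon and do not check the deletion. The methods of the study state that it was checked by immunoblotting and RNA-seq. Of 13 PT markers, Lrp2 and Aqp1 were at 10554 to 20339 and 4243 to 14783 normalized counts, whereas Slc34a1, Slc34a3, Hnf4a, Slc22a6, Slc22a8, Slc27a2 and Miox were at or under 3 in every library. The summed PT markers were at 22028 to 33757 in TβRII flox/flox and 15056 to 17247 in TβRII-/- libraries. Among 8 fibroblast and myofibroblast markers, Postn was at 5530 to 6864 in untreated TβRII flox/flox and 164 to 215 in untreated TβRII-/- libraries, while Acta2 was at 456 to 495 and 2341 to 2616. The summed list was at 2819 to 7389 in TβRII flox/flox and 712 to 2847 in TβRII-/- libraries. The 4 endothelial markers, of which Pecam1 and Emcn were at or under 3 throughout, summed to 125 to 138 and 460 to 584 in untreated TβRII flox/flox and TβRII-/- libraries and 20.7 to 23.3 and 38.5 to 63.6 after H2O2. Kdr made up most of these sums, at 124 to 133 and 459 to 584 without H2O2, whereas Cdh5 was at most 4.21. The 6 leukocyte markers summed to 141 to 153 and 222 to 273 in all TβRII flox/flox and TβRII-/- libraries. Cd68 made up most of these sums, at 127 to 146 and 222 to 271. Adgre1 and Cd3e were at 0 throughout, and Ptprc was at most 6.27. Itgam went the other way, at most 10.3 in TβRII flox/flox and 1.57 in TβRII-/- libraries. The 8 markers of other nephron segments summed to 10.5 to 27.5 and 26.1 to 67.4, mostly from Scnn1g. The part of these differences in the results on carriers was not tested. In such bulk libraries, fewer cells of a type and less RNA per cell cannot be told apart.

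Levels between genes were compared as normalized counts per kilobase of the protein-coding transcript with the most counts. In untreated TβRII flox/flox cells the order was led by Slc25a4, the ADP/ATP carrier of the heart and muscle type, at 3596 per kilobase. Slc25a5, its ubiquitous relative, followed at 1444, Slc25a3, which imports the phosphate for ATP synthesis, at 958, Slc25a24, a calcium-regulated carrier of ATP-Mg and phosphate, at 898, and Ucp2 at 892. The libraries of Slc25a4 and Slc25a5 lay above those of the next gene in the order, whereas those of Slc25a3 and Slc25a24 overlapped, as did those of Slc25a24 and Ucp2. Slc25a1, the citrate carrier, stood sixth at 662 per kilobase. In untreated TβRII-/- cells Ucp2 was at 1619 per kilobase, with libraries that overlapped those of Slc25a5, both under Slc25a4. Slc25a48 was at 93.1 per kilobase in untreated TβRII flox/flox and 710 in untreated TβRII-/- cells, where its libraries overlapped those of Slc25a39. At the other end, 9 members did not have enough counts for a test, with at most 10 raw counts in any library: Slc25a2, Slc25a18, Slc25a21, Slc25a31, Slc25a34, Slc25a41, Slc25a43, Slc25a54 and Ucp1. Slc25a31, the ADP/ATP carrier of the testis, and Slc25a54 were at 0 in every library, and Ucp1 had 1 raw count in 1 library. Slc25a21 had 4, 2 and 4 raw counts in replicates 1, 2 and 3 of H2O2-treated TβRII-/- cells and 1 count in the other 9 libraries together.

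**Figure D1:**
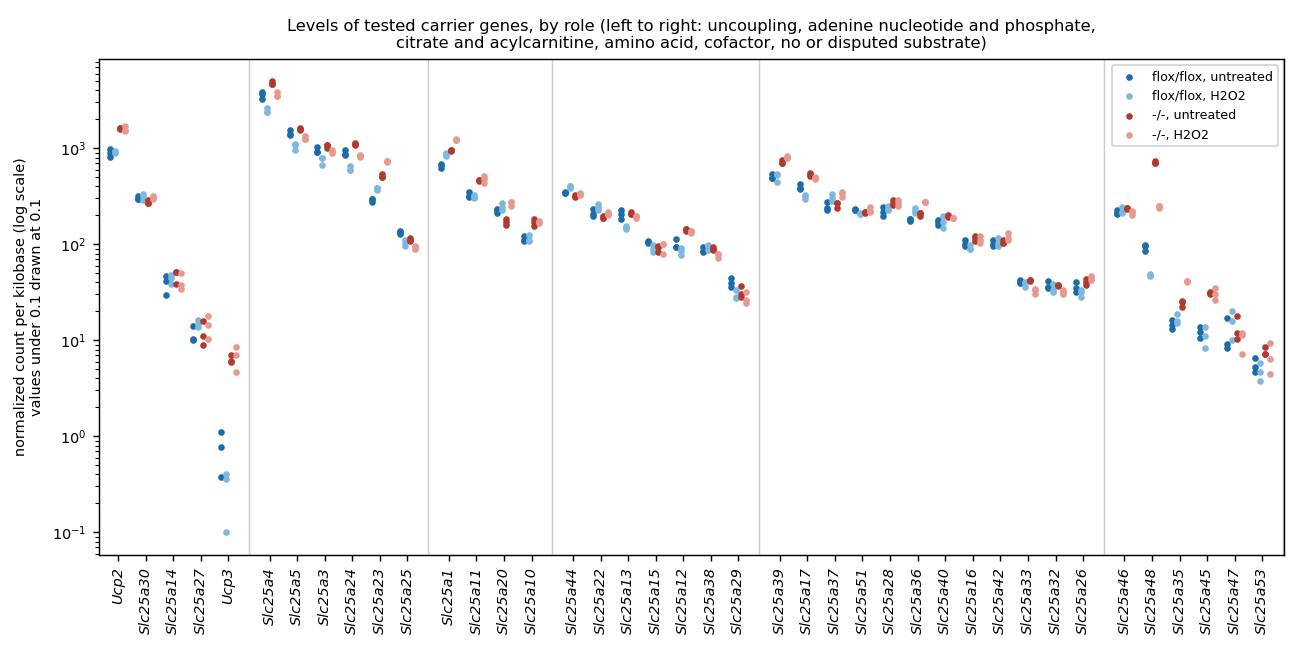
Normalized counts per kilobase, on a log scale, of 40 of the 41 members that were tested, grouped by role and ordered by level within each role. Each point is 1 library, in the order untreated and H2O2-treated TβRII flox/flox, then untreated and H2O2-treated TβRII-/- cells, and 1 Ucp3 library at 0 is drawn at 0.1. Slc25a4 led the family in all 4 groups, and Slc25a48 and Ucp3 were separated by genotype.

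Deletion of TβRII was compared first in untreated cells. Of the 41 members tested, 19 were higher in TβRII-/- than in TβRII flox/flox cells and 5 were lower at an adjusted p under 0.05 (edgeR's quasi-likelihood test). Among all 12971 genes tested, 33.3% were higher and 31.4% lower. The share of members was thus above the background for higher calls, at 46.3%, and below it for lower calls, at 12.2%. The 5 lower members became 2 without replicate 3 of untreated TβRII-/- cells and 3 without replicate 1 of untreated TβRII flox/flox cells, and 3 with DESeq2. The median log2 fold change was 0.17 over the members and 0.01 over all genes. At the limits used in the study, an unadjusted p under 0.01 and a change of at least 1.5-fold, 6 members were higher, or 14.6% against 15.7% of all genes, a share near the background. None was lower at these limits by edgeR, against 11.3% of all genes. That count stayed at 0 with an unadjusted p under 0.05 and the same fold, and with DESeq2. After H2O2, 21 members were higher, 3 lower, against 35.1% and 31.3% of all genes, with a median log2 fold change of 0.28 against 0.02. At the study limits 11 members were higher, or 26.8% against 16.9%, and 0 lower against 12.9%, again 0 with an unadjusted p under 0.05 and 0 with DESeq2, which counted 10 as higher. The comparisons share no libraries with each other, but each shares a group with the comparisons of H2O2 given below.

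**Figure D2:**
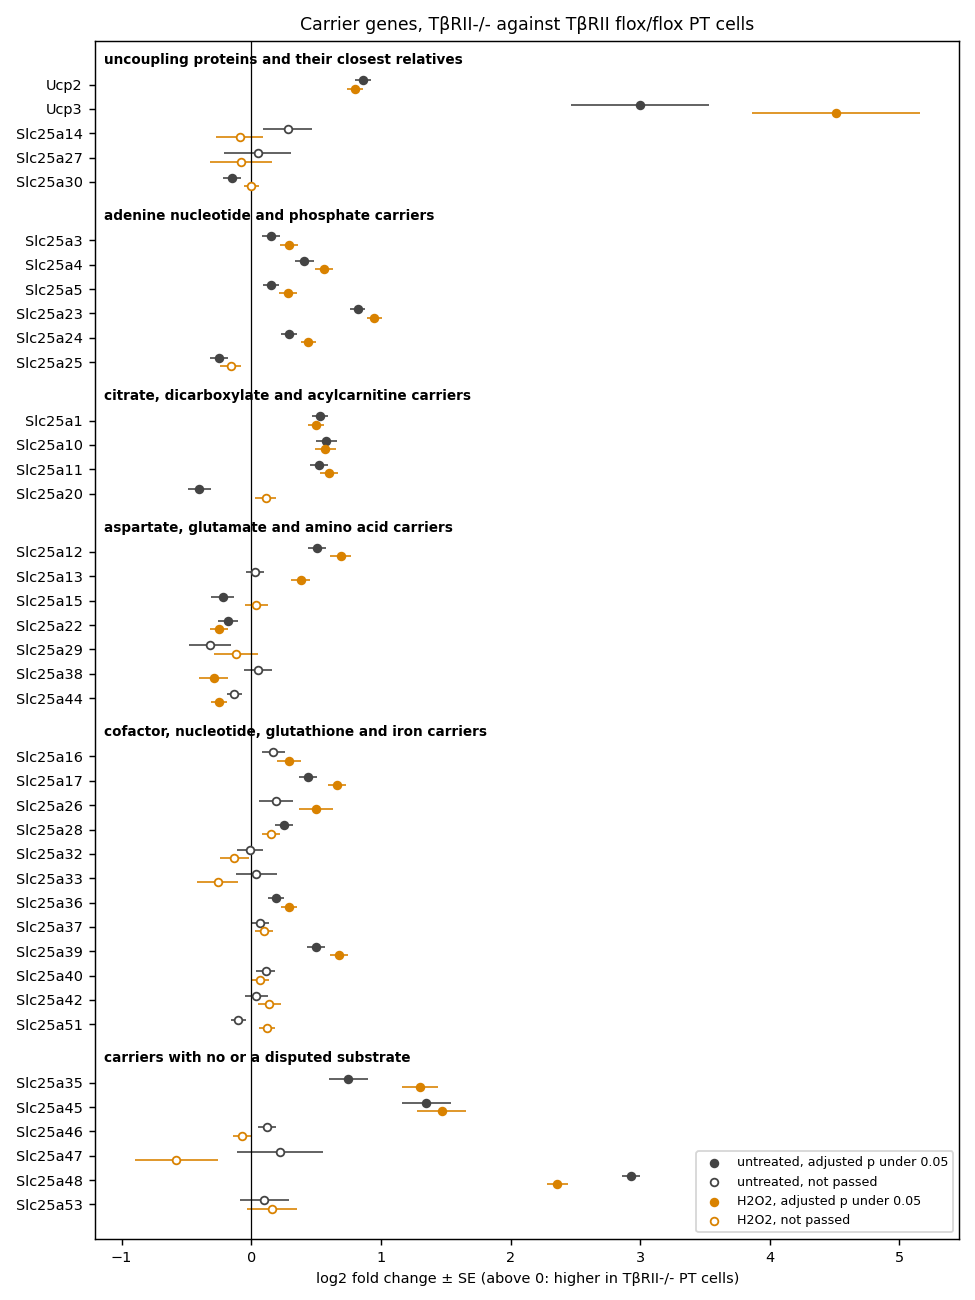
Log2 fold change ± SE of TβRII-/- against TβRII flox/flox cells for 40 of the 41 tested members, by role, untreated (dark) and after H2O2 (orange). Filled points had an adjusted p under 0.05. The points lie mostly to the right of 0, with Slc25a48 and Ucp3 farthest from it.

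Among the uncoupling proteins and their closest relatives, Ucp2 and Ucp3 were higher in TβRII-/- cells under both conditions. Ucp2, counted on ENSMUST00000126534 and located on chromosome 7 of GRCm38.p6 from 100493337 to 100499629, was at 3277, 3887 and 3548 normalized counts in the untreated TβRII flox/flox libraries, given here and throughout in the order of replicates 1, 2 and 3, and at 6369, 6531 and 6550 in the untreated TβRII-/- libraries. After H2O2 it was at 3779, 3668 and 3613 against 6825, 6272 and 6126. Every TβRII-/- library lay above every TβRII flox/flox library. The log2 fold change was 0.86 ± 0.06 (SE, n = 3 per group, adjusted p = 1.63e-13) without and 0.80 ± 0.06 (adjusted p = 9.26e-13) with H2O2. Between treated and untreated cells the log2 fold changes of Ucp2 were 0.05 ± 0.06 and -0.02 ± 0.06 in the TβRII flox/flox and TβRII-/- cells, which did not pass, with overlapping libraries. Dnajb13, which overlaps 27.3% of the counted Ucp2 transcript on the opposite strand, was at 0 to 1.92 normalized counts.

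The stretch before the start of Ucp2 is shown because Ucp2 is the uncoupling protein with the most counts, and none of the 3 motifs searched was found in it. It covers chr7:100493108-100493336 of GRCm38.p6 on the plus strand, from the RefSeq promoter windows.
Ucp2 upstream: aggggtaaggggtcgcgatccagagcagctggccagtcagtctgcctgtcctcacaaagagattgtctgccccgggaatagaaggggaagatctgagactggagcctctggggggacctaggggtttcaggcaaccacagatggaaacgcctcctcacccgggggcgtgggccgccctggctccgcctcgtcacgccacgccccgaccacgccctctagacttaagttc

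Ucp3, the form best known from skeletal muscle, was near the limit of detection. It had 3, 2 and 1 raw counts in untreated TβRII flox/flox cells and 16, 18 and 21 in untreated TβRII-/- cells. After H2O2 the raw counts were 0, 1 and 1 against 26, 17 and 20. The groups did not overlap in either condition. Adjusted for library size, the counts were 8.4 times as many without H2O2 (55 against 6 counts, 95% exact interval 3.62 to 23.9) and 26.5 times as many with it (63 against 2 counts, 7.04 to 224). The intervals cover counting error only. The adjusted p was 1.10e-05 and 3.07e-07 in the fit across all genes, and Ucp3 could not be tested where every library had to hold 10 counts. It passed the filter on low counts only through the TβRII-/- libraries, where it was high. These p-values are therefore no separate support for the difference between genotypes. Ucp3 is among the members counted above as higher in both conditions, also at the study limits. Slc25a14 and Slc25a27, carriers best known from the nervous system, did not pass. Slc25a14 was at 53.7, 74.6 and 83.9 normalized counts in untreated TβRII flox/flox and 94.1, 92.9 and 69.9 in untreated TβRII-/- cells, and at 82.2, 70.2 and 87.1 against 93.2, 62.1 and 69.6 after H2O2. Slc25a27 was at 41, 30.0 and 29.0 against 46.0, 26.1 and 32.5, and at 39.6, 46.5 and 42.4 against 41.5, 29.9 and 51.7. The genotypes overlapped for both genes, at log2 fold changes of 0.28 ± 0.19 and 0.05 ± 0.26 without H2O2 and -0.09 ± 0.18 and -0.08 ± 0.24 with it. Slc25a30, a kidney carrier, was at 1074, 1063 and 1147 normalized counts in untreated TβRII flox/flox and 961, 1029 and 961 in untreated TβRII-/- cells, and at 1186, 1026 and 1140 against 1141, 1128 and 1073 after H2O2. The genotypes were apart only without H2O2. Its log2 fold change of -0.15 ± 0.07 (adjusted p = 0.0389) lost its call without replicate 3 of the untreated TβRII flox/flox group (adjusted p = 0.105) or replicate 1 or 3 of untreated TβRII-/- cells (0.104 and 0.111). It also did not pass with a replicate block (0.0511), with only the groups compared (0.0647), where every library had to hold 10 counts (0.0607) or with sums over transcripts, at -0.09 with an adjusted p of 0.306.

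**Figure D3:**
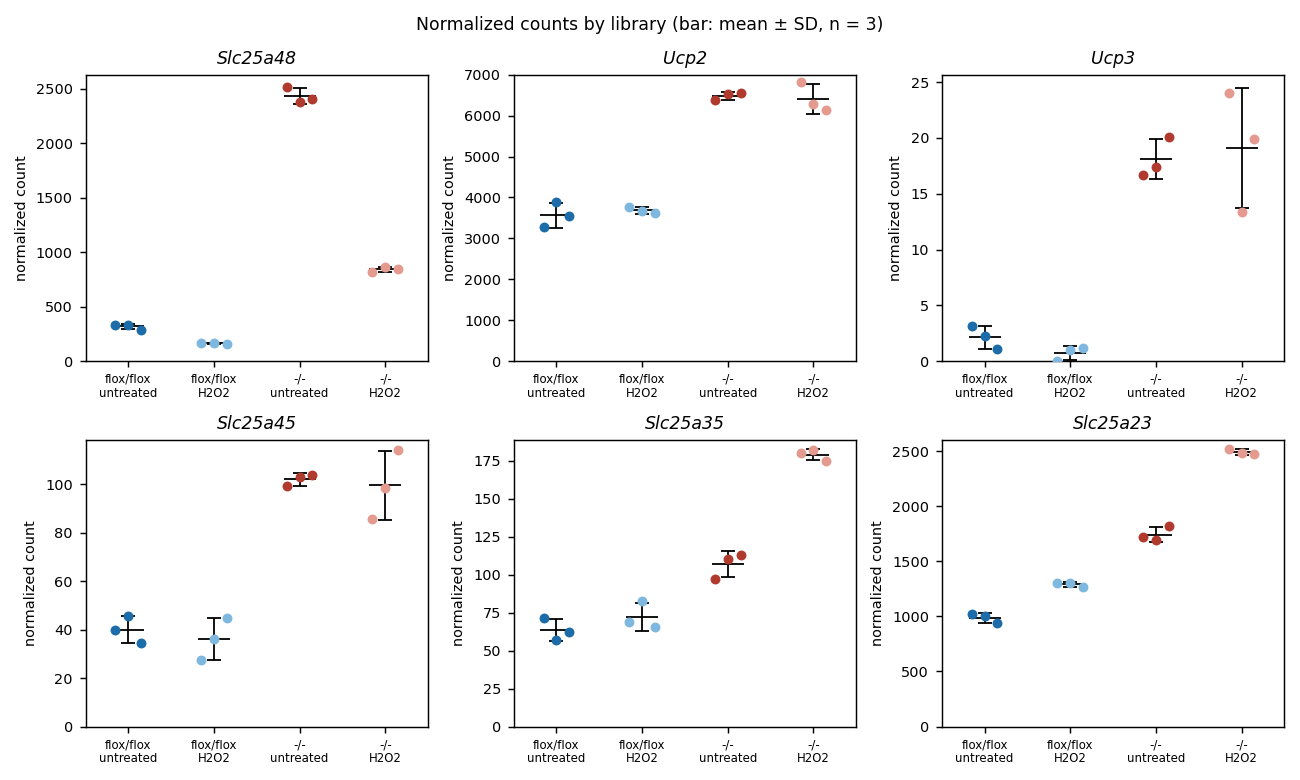
Normalized counts of 6 members in each of the 12 libraries, with the mean ± SD of each group (n = 3). All 6 TβRII-/- libraries lie above all 6 TβRII flox/flox libraries for Slc25a48, Ucp2, Ucp3, Slc25a45, Slc25a35 and Slc25a23.

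The widest difference between genotypes among members with over 100 counts was in Slc25a48, a carrier long without a known substrate that has been linked to the uptake of choline into mitochondria. It was at 332, 334 and 290 normalized counts in untreated TβRII flox/flox and 2512, 2378 and 2407 in untreated TβRII-/- cells. Its counts came from ENSMUST00000021971, on chromosome 13 at 56437960 to 56472367 of GRCm38.p6. In the treated libraries it was at 163, 166 and 162 against 818, 860 and 850. The 4 groups did not overlap with one another. The log2 fold change between genotypes was 2.93 ± 0.07 (adjusted p = 7.34e-27) without and 2.36 ± 0.08 (adjusted p = 1.10e-22) with H2O2. The tested genes around Slc25a48 on chromosome 13, 12 on each side, had a median of -0.18 and -0.13 in these comparisons. Slc25a45, a close relative whose signature codons are printed above, was at 40.0, 45.6 and 34.4 against 99.3, 103 and 104 normalized counts without H2O2. With H2O2 it was at 27.4, 36.2 and 44.7 against 85.8, 98.3 and 114. The groups were apart in both conditions, at log2 fold changes of 1.35 ± 0.19 (adjusted p = 1.64e-07) and 1.47 ± 0.19 (adjusted p = 3.76e-08).

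Slc25a35, whose substrate is not settled, was at 71.5, 56.8 and 62.4 normalized counts in untreated TβRII flox/flox and 97.3, 110 and 113 in untreated TβRII-/- cells, a log2 fold change of 0.75 ± 0.15 (adjusted p = 7.34e-05). The treated libraries were at 69.0, 82.6 and 65.3 against 180, 182 and 175, at 1.30 ± 0.14 (adjusted p = 5.81e-10). The TβRII-/- libraries lay above the others in both conditions. Rangrf, which overlaps this gene on the opposite strand, was at 54.5 to 104 normalized counts, and its own differences between genotypes were 0.16 ± 0.18 and -0.30 ± 0.19. Whether the reads were counted by strand is not given in the sources used here. Slc25a46, Slc25a47 and Slc25a53 of this group did not pass in either condition, although Slc25a47 passed after H2O2 without replicate 1 of H2O2-treated TβRII flox/flox cells, at -0.86 with an adjusted p of 0.028.

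Of the carriers of adenine nucleotides and phosphate, 6 of 9 could be tested, and 5 of them, or 83.3%, were higher in TβRII-/- cells under both conditions, against 33.3% of all genes without and 35.1% with H2O2. Without H2O2, 2 of these 5 calls, those of Slc25a5 and Slc25a3, did not hold throughout, as given below. Slc25a4 was at 6353, 7373 and 7086 normalized counts in untreated TβRII flox/flox and 8982, 9572 and 9074 in untreated TβRII-/- cells. After H2O2 it was at 5092, 4647 and 4570 against 6812, 7443 and 6800. The genotypes did not overlap within a condition, at log2 fold changes of 0.41 ± 0.07 (adjusted p = 1.98e-06) and 0.56 ± 0.07 (adjusted p = 6.61e-09). Slc25a5 was at 1797, 1879 and 2053 against 2169, 2113 and 2073 without H2O2, and at 1482, 1260 and 1436 against 1655, 1787 and 1643 with it. Slc25a3 was at 2421, 2440 and 2747 against 2878, 2863 and 2688, and at 2086, 1776 and 2103 against 2399, 2545 and 2342. The genotypes overlapped only for Slc25a3 without H2O2. After H2O2 the log2 fold changes were 0.28 ± 0.07 for Slc25a5 (adjusted p = 3.12e-04) and 0.29 ± 0.07 for Slc25a3 (adjusted p = 2.99e-04). Without H2O2 both stood at 0.15, with adjusted p of 0.0413 and 0.0492. These 2 calls were lost in most fits that left out 1 library. For Slc25a5 the adjusted p was then between 0.051 and 0.188, without untreated TβRII flox/flox replicate 1 or 2, any untreated TβRII-/- library, replicate 3 of H2O2-treated TβRII flox/flox or replicate 1 of H2O2-treated TβRII-/- cells. For Slc25a3 it was between 0.0552 and 0.18, without replicate 1 or 2 of either untreated group, replicate 1 or 3 of H2O2-treated TβRII flox/flox or any H2O2-treated TβRII-/- library. The calls of Slc25a5 and Slc25a3 were also lost with no filter (adjusted p of 0.0549 and 0.0553) and with a replicate block (0.051 and 0.0571). With only the groups compared these were 0.0585 and 0.0669, and with sums over transcripts 0.0746 and 0.104. Slc25a3 also did not pass on protein-coding transcripts (0.0509).

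Slc25a23, Slc25a24 and Slc25a25 are related calcium-regulated carriers that exchange ATP-Mg for phosphate, and they differed from one another. Slc25a23 was at 1019, 1002 and 938 normalized counts in untreated TβRII flox/flox and 1719, 1691 and 1821 in untreated TβRII-/- cells. In the treated libraries it was at 1303, 1306 and 1266 against 2525, 2485 and 2478. The 4 groups did not overlap. The log2 fold change between genotypes was 0.82 ± 0.06 (adjusted p = 8.32e-14) without and 0.95 ± 0.06 (adjusted p = 8.12e-16) with H2O2. Slc25a24 was higher by 0.29 ± 0.06 and 0.44 ± 0.06 on the log2 scale. Slc25a25 was at -0.25 ± 0.07 (adjusted p = 0.00473) and -0.16 ± 0.08 (adjusted p = 0.061). The latter passed without any 1 of the untreated TβRII flox/flox libraries or without replicate 2 or 3 of H2O2-treated TβRII flox/flox cells. With H2O2, Slc25a25 also passed with sums over transcripts, at -0.24 with an adjusted p of 0.00438. It passed at -0.18 with DESeq2 size factors in edgeR (adjusted p = 0.0414) and with only the groups compared (adjusted p = 0.0439).

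Promoter windows of RefSeq, 250 bases before to 50 after a start, were matched for 39 of the 50 members and searched on both strands for 3 motifs. The nuclear respiratory factor 1 motif, GCGCA and GCGC with any base between them, was in 2 members, Slc25a3 and Slc25a31, or 5.13% against 5.19% of all 27025 genes. The core of the antioxidant response element, TGAC and GCA with any 3 bases between them, was in 1 member, Slc25a23, or 2.56% against 3.45%. TNAAGGTCA, a motif of estrogen-related receptors, was in 0 members and in 1.43% of all genes. The shares of members were near or under those of all genes. The parts of the windows before the genes are printed for Slc25a23, because it was higher in all 4 comparisons of 2 groups, at chr17:57059910-57060113 on the minus strand, and for Slc25a3, at chr10:91124047-91124217 on the minus strand, both of GRCm38.p6. Capitals mark the match, which in both reads on the other strand.
Slc25a23 upstream: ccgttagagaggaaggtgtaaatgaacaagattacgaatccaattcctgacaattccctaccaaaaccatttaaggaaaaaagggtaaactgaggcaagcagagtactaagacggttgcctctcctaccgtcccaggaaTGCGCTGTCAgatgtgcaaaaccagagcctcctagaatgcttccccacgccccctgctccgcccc
Slc25a3 upstream: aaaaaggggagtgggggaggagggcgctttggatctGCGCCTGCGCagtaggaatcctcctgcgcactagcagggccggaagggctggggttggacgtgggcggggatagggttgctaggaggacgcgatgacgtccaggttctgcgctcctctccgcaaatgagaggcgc
A match is a description of these letters and not a site.

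All 4 tested carriers of citrate, dicarboxylates and acylcarnitines passed the test without H2O2, 3 higher and 1 lower in TβRII-/- cells. These were 75.0% and 25.0%, against 33.3% and 31.4% of all genes. With H2O2 3 were higher, or 75.0% against 35.1%, and 0 lower against 31.3%. Slc25a1, which exports citrate for lipid synthesis, was higher by a log2 fold change of 0.53 ± 0.06 without and 0.50 ± 0.06 with H2O2, beside medians of 0.38 and 0.39 over the genes around it. Slc25a10, the dicarboxylate carrier, was higher by 0.58 ± 0.08 and 0.57 ± 0.08. Slc25a11, the oxoglutarate carrier of the malate-aspartate shuttle, was at 532, 602 and 552 normalized counts in untreated TβRII flox/flox and 806, 795 and 812 in untreated TβRII-/- cells. With H2O2 it was at 542, 524 and 557 against 890, 818 and 756. The genotypes did not overlap, at log2 fold changes of 0.52 ± 0.07 (adjusted p = 1.90e-07) and 0.60 ± 0.07 (adjusted p = 7.67e-09). Slc25a20, which brings acylcarnitines into the matrix for fatty acid oxidation, was the one that was lower, at 419, 405 and 382 against 306, 281 and 328 normalized counts. Its log2 fold change was -0.40 ± 0.09 (adjusted p = 1.88e-04) without H2O2 and 0.11 ± 0.08 (adjusted p = 0.235) with it.

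The carriers of aspartate, glutamate and other amino acids went in both directions. Slc25a12, the aspartate-glutamate carrier of the malate-aspartate shuttle that is also called aralar, was at 595, 590 and 722 normalized counts in untreated TβRII flox/flox and 883, 914 and 910 in untreated TβRII-/- cells. The treated libraries were at 575, 535 and 495 against 882, 876 and 833. The genotypes did not overlap, at log2 fold changes of 0.51 ± 0.07 (adjusted p = 5.45e-07) and 0.69 ± 0.08 (adjusted p = 1.45e-09). The genes around it on its chromosome had medians of 0.32 and 0.33. Its relative Slc25a13, or citrin, differed by 0.03 ± 0.07 without and 0.38 ± 0.07 (adjusted p = 3.33e-05) with H2O2. Slc25a15, the ornithine carrier, and Slc25a22, a glutamate carrier, were lower without H2O2, at -0.22 and -0.18, with adjusted p of 0.0452 and 0.0359. Neither call held throughout. For Slc25a15 it was lost without replicate 1 or 2 of untreated TβRII flox/flox or replicate 3 of untreated TβRII-/- cells, and for Slc25a22 without replicate 1 of untreated TβRII flox/flox or any untreated TβRII-/- library. Both calls were also lost with DESeq2 (adjusted p of 0.0695 and 0.0544) and where every library had to hold 10 counts (0.0652 and 0.0568). That of Slc25a15 was lost with a replicate block (0.0533), and that of Slc25a22 with only the groups compared (0.0552). Slc25a22 was counted on a transcript annotated as a retained intron. On its protein-coding transcript it stood at -0.16 with an adjusted p of 0.0749. Over all alternatives that lost them, the log2 fold changes were -0.22 to -0.15 and -0.19 to -0.10. With H2O2, Slc25a22 and Slc25a44, a carrier of branched-chain amino acids, were both lower, at log2 fold changes of -0.25, and Slc25a38, a glycine carrier, at -0.29. The call of Slc25a38 was lost without replicate 3 of H2O2-treated TβRII-/- cells, at -0.26 with an adjusted p of 0.0773.

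Of the 13 carriers of cofactors, nucleotides, glutathione and iron, all of which were tested, 5 were higher in TβRII-/- cells without H2O2 and 6 with it, or 38.5% against 33.3% of all genes and 46.2% against 35.1%. In both conditions 0 were lower, against 31.4% and 31.3% of all genes. Slc25a39, needed for the import of glutathione into mitochondria, was at 1437, 1575 and 1437 normalized counts in untreated TβRII flox/flox and 2181, 2065 and 2039 in untreated TβRII-/- cells. After H2O2 it was at 1528, 1588 and 1280 against 2408, 2307 and 2322. The genotypes did not overlap, at log2 fold changes of 0.50 ± 0.07 (adjusted p = 8.99e-08) and 0.68 ± 0.07 (adjusted p = 1.20e-10). Rundc3a, on the opposite strand at the same place, was at 1.03 to 32.8 normalized counts. Slc25a40, the closest relative of Slc25a39 in the family, was at 0.11 and 0.07 and did not pass on the transcript counted, which is annotated as a retained intron. Without H2O2 it passed with sums over transcripts, at 0.19 with an adjusted p of 0.0477, and on its protein-coding transcript, at 0.21 with an adjusted p of 0.031. Slc25a17, a carrier of peroxisomes rather than mitochondria that moves coenzyme A and related cofactors, was at 687, 673 and 750 against 952, 992 and 924 normalized counts without H2O2. In the treated libraries it was at 562, 525 and 574 against 894, 880 and 845. It was higher by 0.44 ± 0.07 (adjusted p = 7.29e-07) and 0.66 ± 0.07 (adjusted p = 4.01e-10), beside medians of 0.40 and 0.41 over the genes around it. Slc25a36, a carrier of pyrimidine nucleotides, was higher by 0.19 and 0.29. Slc25a28, or mitoferrin 2, passed without H2O2, at 0.25 ± 0.07, and was at 0.15 with it, under the medians of 0.47 and 0.52 over the genes around it. With H2O2 it passed where replicate 2 of H2O2-treated TβRII-/- cells was left out (0.19, adjusted p = 0.0295), where every library had to hold 10 counts (0.16, adjusted p = 0.0449) and on protein-coding transcripts (0.18, adjusted p = 0.0444). Slc25a26, which imports S-adenosylmethionine, passed with H2O2, at 0.50 ± 0.13. Neither of them passed the test of the difference between the conditions. Slc25a16 was higher with H2O2, at 0.29, and lost its call without replicate 2 of H2O2-treated TβRII-/- cells, at 0.23 with an adjusted p of 0.0506. Slc25a51, the NAD carrier, stood at -0.10 and 0.12 and did not pass.

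The response to H2O2 was compared next within each genotype. In TβRII flox/flox cells 6 of 41 members rose and 10 fell, against 21.0% and 20.5% of all genes. In TβRII-/- cells 8 rose and 6 fell, against 20.5% and 19.1%. The shares were 14.6% and 24.4% of the members in the first and 19.5% and 14.6% in the second. The 6 members that fell in TβRII-/- cells became 10 without replicate 3 of untreated TβRII flox/flox cells, a library outside that comparison. The medians of the members were -0.02 in both genotypes, against 0.01 and 0.02 over all genes. At the study limits, Slc25a48 was the 1 member that fell in TβRII flox/flox cells, against 2.44% of all genes. There 0 rose, against 5.13%, also with an unadjusted p under 0.05 and with DESeq2. In TβRII-/- cells Slc25a48 fell, against 3.52%, and Slc25a35 and Slc25a20 rose, against 4.25%. The count in TβRII flox/flox cells went from 1 to 2 without replicate 1 of the untreated group, where Slc25a4 was added, and without replicate 1 of the treated group, where Slc25a24 was added.

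**Figure D4:**
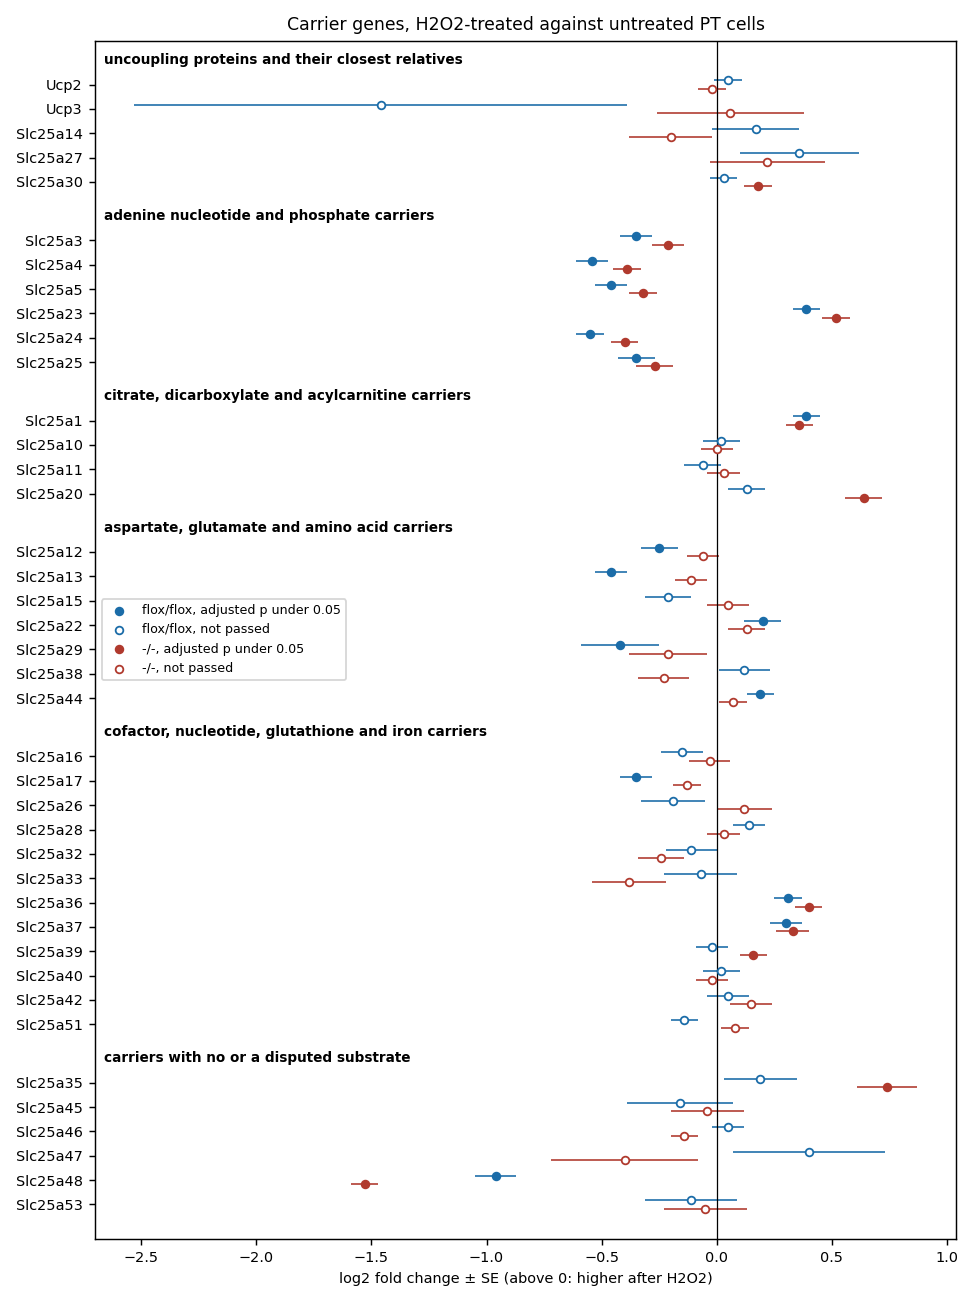
Log2 fold change ± SE of H2O2-treated against untreated PT cells for 40 of the 41 tested members, by role, in TβRII flox/flox (blue) and TβRII-/- (red) PT cells. Filled points had an adjusted p under 0.05. Most adenine nucleotide and phosphate carriers lie to the left of 0 in both genotypes, with Slc25a23 to the right.

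Of the 6 tested carriers of adenine nucleotides and phosphate, 5 fell and 1 rose in each genotype. The falls, 83.3% of these carriers, stand against 20.5% of all genes in TβRII flox/flox and 19.1% in TβRII-/- cells. Slc25a4 fell, at a log2 fold change of -0.54 ± 0.07 (SE, adjusted p = 7.62e-08) in TβRII flox/flox and of -0.39 ± 0.06 (adjusted p = 1.37e-05) in TβRII-/- cells. Slc25a5 fell at -0.46 ± 0.07 and -0.32 ± 0.06, and Slc25a3 at -0.35 ± 0.07 and -0.21 ± 0.07. Treated and untreated libraries did not overlap for these 3 carriers in either genotype. Slc25a3 in TβRII-/- cells lost its call without replicate 3 of the H2O2-treated group, at -0.18 with an adjusted p of 0.0606. Slc25a24 fell at -0.55 ± 0.06 (adjusted p = 1.08e-08) and -0.40 ± 0.06 (adjusted p = 2.19e-06). It was at 3107, 3079 and 3457 normalized counts in untreated and 2325, 2113 and 2143 in treated TβRII flox/flox cells, and at 3862, 4031 and 3935 against 2954, 3077 and 2913 in TβRII-/- cells. Slc25a25 fell at -0.35 ± 0.08 and -0.27 ± 0.08. Slc25a23 rose, by 0.39 ± 0.06 (adjusted p = 4.53e-06) and 0.52 ± 0.06 (adjusted p = 8.08e-09).

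**Figure D5:**
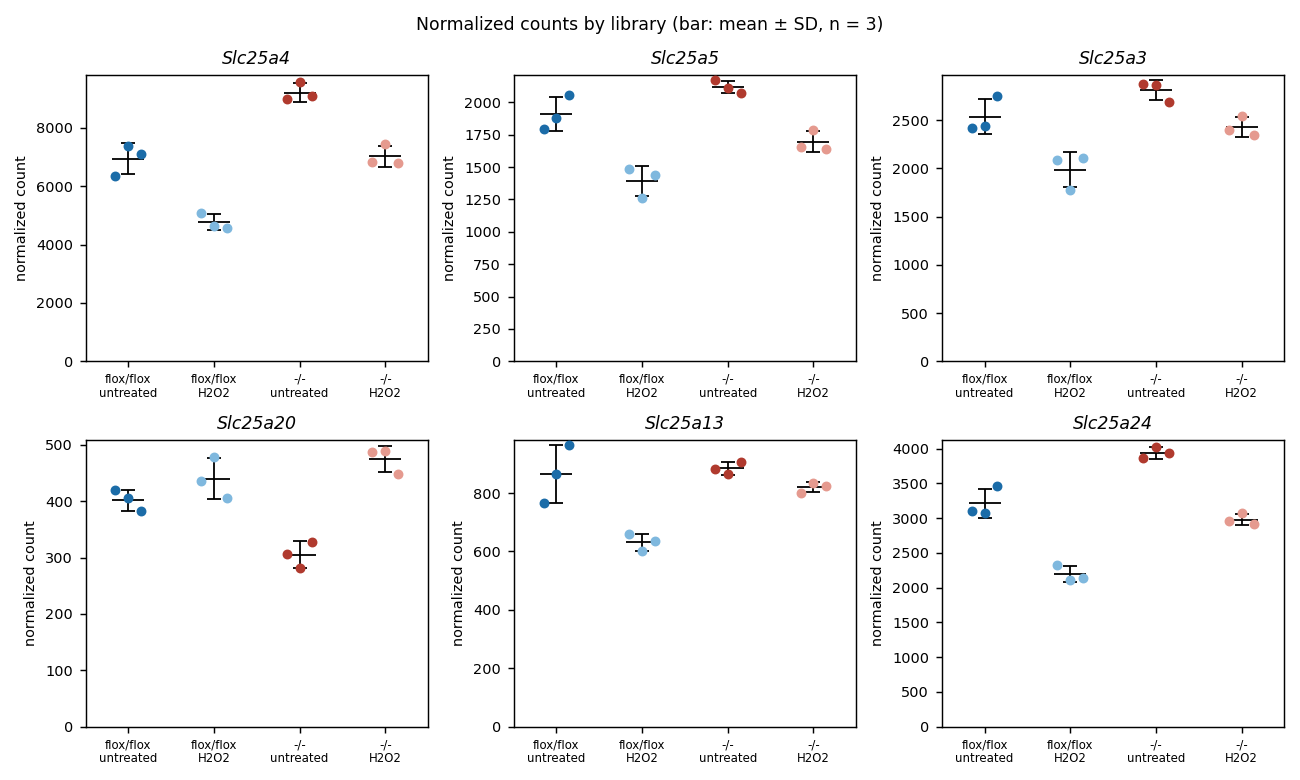
Normalized counts of 6 members in each of the 12 libraries, with the mean ± SD of each group (n = 3). Slc25a4, Slc25a5, Slc25a3 and Slc25a24 were lower after H2O2 in both genotypes, Slc25a20 was higher in TβRII-/- cells, and Slc25a13 was lower in TβRII flox/flox cells.

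Other members rose in both genotypes. Slc25a1 was at 1158, 1269 and 1225 normalized counts in untreated and 1658, 1516 and 1611 in treated TβRII flox/flox cells, and at 1739, 1779 and 1761 against 2246, 2222 and 2308 in TβRII-/- cells. The 4 groups did not overlap. The log2 fold changes were 0.39 ± 0.06 (adjusted p = 3.56e-06) and 0.36 ± 0.06 (adjusted p = 6.36e-06). Slc25a36 rose by 0.31 ± 0.06 and 0.40 ± 0.06, and Slc25a37, or mitoferrin 1, which brings iron into the matrix for heme and iron-sulfur clusters, by 0.30 ± 0.07 and 0.33 ± 0.07. Among the uncoupling proteins and their relatives, 1 of 5 rose in TβRII-/- cells, against 20.5% of all genes, and 0 fell, against 19.1%. The share that rose was near the background. In TβRII flox/flox cells 0 rose, against 21.0% of all genes, and 0 fell, against 20.5%. The 1 that rose was Slc25a30 in TβRII-/- cells, at 0.18 ± 0.06 (adjusted p = 0.0263), from 961, 1029 and 961 to 1141, 1128 and 1073 normalized counts. Its call was lost without replicate 3 of H2O2-treated TβRII flox/flox, replicate 1 or 3 of untreated TβRII-/- or replicate 1 or 2 of H2O2-treated TβRII-/- cells, with adjusted p between 0.0507 and 0.0948. Slc25a39 rose in TβRII-/- cells by 0.16 ± 0.06 (adjusted p = 0.0446). That call was lost without any 1 of 10 libraries, all but replicate 3 of H2O2-treated TβRII flox/flox and replicate 1 of untreated TβRII-/- cells, with adjusted p between 0.0552 and 0.143.

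Slc25a13, Slc25a17 and Slc25a12 fell in TβRII flox/flox cells, at log2 fold changes of -0.46 ± 0.07, -0.35 ± 0.07 and -0.25 ± 0.08. In TβRII-/- cells they stood at -0.11 ± 0.07, -0.13 ± 0.06 and -0.06 ± 0.07, which did not pass. The call of Slc25a12 in TβRII flox/flox cells was lost without replicate 3 of the untreated group (-0.14, adjusted p = 0.172) or of the treated group (-0.18, adjusted p = 0.0968). Slc25a17 in TβRII-/- cells passed, at -0.15 with an adjusted p of 0.0475, without replicate 3 of untreated TβRII flox/flox cells. Slc25a22 and Slc25a44 rose in TβRII flox/flox cells, by 0.20 and 0.19, and Slc25a29, a carrier of basic amino acids, fell at -0.42. The call of Slc25a22 was lost without replicate 2 or 3 of either TβRII flox/flox group, at 0.15 to 0.19. That of Slc25a29, with an adjusted p of 0.044, was lost without replicate 1 or 2 of the untreated or replicate 2 or 3 of the treated TβRII flox/flox group, or replicate 2 of H2O2-treated TβRII-/- cells.

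Whether the response to H2O2 differed between genotypes was tested with an interaction term, which is positive where the log2 fold change was higher in TβRII-/- cells. It passed for 3 of 41 members, 2 positive and 1 negative, or 4.88% and 2.44%, against 3.90% and 6.28% of all genes. These shares were near or under the background. Slc25a20 was at 419, 405 and 382 normalized counts in untreated and 435, 479 and 406 in treated TβRII flox/flox cells. In TβRII-/- cells it was at 306, 281 and 328 before and 487, 489 and 448 after H2O2. The treated and untreated libraries overlapped in the first genotype, at 0.13 ± 0.08, and were apart in the second, at 0.64 ± 0.08 (adjusted p = 3.15e-07). The interaction was 0.51 ± 0.12 (adjusted p = 0.0052). Slc25a13 was at 766, 866 and 964 against 658, 600 and 634 in TβRII flox/flox and at 882, 865 and 906 against 801, 835 and 824 in TβRII-/- cells. Treated libraries lay under untreated ones in both. Its interaction was 0.35 ± 0.10 (adjusted p = 0.0254), and was lost without replicate 2 or 3 of either TβRII flox/flox group or replicate 2 of either TβRII-/- group, at 0.24 to 0.34 with adjusted p between 0.0573 and 0.126, and with sums over transcripts, at 0.32 with an adjusted p of 0.0853.

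Slc25a48 was the member whose interaction was negative, at -0.57 ± 0.11 (adjusted p = 6.91e-04). Its normalized counts, given above, fell in both genotypes, at log2 fold changes of -0.96 ± 0.09 in TβRII flox/flox and -1.53 ± 0.06 in TβRII-/- cells. Slc25a35 rose in TβRII-/- cells, at 0.74 ± 0.13 (adjusted p = 2.16e-05), and stood at 0.19 ± 0.16 in TβRII flox/flox cells, but its interaction of 0.55 ± 0.21 did not pass (adjusted p = 0.0869). Rangrf on the opposite strand was at -0.60 ± 0.18 in TβRII-/- cells. The calls that differed between genotypes for Slc25a17, Slc25a12 and Slc25a30 did not pass this test either, at 0.22 ± 0.10, 0.18 ± 0.11 and 0.15 ± 0.09.

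Other transport across the mitochondrial membranes was followed with 23 genes, among them Mtch1 and Mtch2, divergent relatives of the carriers that the rule on symbols did not take. Without H2O2, 7 were higher and 7 lower in TβRII-/- cells, or 30.4% each, against 33.3% and 31.4% of all genes. With it 9 were higher and 7 lower, or 39.1% and 30.4%, against 35.1% and 31.3%. These shares were near the background. Smdt1, a regulator of the calcium uniporter, was higher by 0.74 ± 0.07 and 0.76 ± 0.07 on the log2 scale, and Mtch2, an insertase of the outer membrane, by 0.64 ± 0.06 and 0.72 ± 0.06. Abcb10, a transporter of the inner membrane that is needed for heme synthesis, was at -0.83 ± 0.07 and -1.14 ± 0.06. After H2O2, 11 of the 23 fell and 3 rose in TβRII flox/flox cells, or 47.8% and 13.0% against 20.5% and 21.0% of all genes. In TβRII-/- cells 6 fell, or 26.1% against 19.1%, and 0 rose, against 20.5%. Vdac1, the main pore of the outer membrane, fell in both, at -0.49 ± 0.07 and -0.38 ± 0.07. Of 10 genes for the import of carriers into the inner membrane, 3 were higher and 3 lower without H2O2, against 33.3% and 31.4% of all genes, and 2 were higher and 3 lower with it, against 35.1% and 31.3%. Agk, a lipid kinase that is also a part of the translocase for carriers, was the farthest of them from 0, at -1.60 ± 0.12 and -1.74 ± 0.11, from a mean of 358 to 118 normalized counts without H2O2 and of 395 to 119 with it. Tomm70a, the receptor for carriers on the outer membrane, fell after H2O2, at -0.27 ± 0.06 in TβRII flox/flox and -0.31 ± 0.06 in TβRII-/- cells.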

How the data were processed

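RNA from 3 libraries of each of 4 groups of mouse PT cells was sequenced with a stranded kit. Per the labels, the authors aligned reads to GRCm38.p6 with STAR and made the deposited raw counts per transcript with featureCounts, whose settings and versions are not given in the sources used here. A design per gene had been assumed, so the transcript with the most counts over all libraries stood for each gene, and 8 members were counted on a transcript that is not protein-coding. These were Slc25a14, Slc25a22, Slc25a26, Slc25a28, Slc25a37, Slc25a40, Slc25a42 and Slc25a53. Reads that fit several transcripts appear to be counted for each, because the deposited totals below exceed the library sizes given in the study. Sums over transcripts can then hold a read more than once. Of 106332 transcripts, 104820 were matched to genes by GENCODE identifier, and the other 1512 held 1.221% to 1.281% of each library's deposited 51387170 to 69231661 counts. The members and lists were chosen with earlier results of these data known.

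Genes were filtered with filterByExpr of edgeR 4.0.16 (R 4.3.3), normalized by TMM and tested with the quasi-likelihood test on all 12 libraries, with Benjamini-Hochberg adjustment over 12971 genes. Normalized counts are counts scaled to the mean effective library size, of 17351835 counts. Other settings were DESeq2 1.42.0, its size factors in edgeR, no filter, at least 10 counts in every library, a replicate block, the groups compared alone, sums over transcripts, each library left out and, chosen after seeing the data, protein-coding transcripts. Tested on simulated data with 200 of 12766 genes changed 2-fold between untreated genotypes, edgeR recovered 193 and called 11 unchanged genes. No replicate pair agreed within sampling noise. Values were given by library for the uncoupling proteins and their relatives, the ADP/ATP and phosphate carriers, and each member with an adjusted p under 0.05, at least 1.5-fold change, a mean of 10 normalized counts and no overlap in a comparison of 2 groups, or an adjusted p under 0.05 for the interaction. Slc25a1 and Slc25a24 were added after their values were seen. The values of 1 member are not reported here, and it is left out of the plots but not of the counts. Similar transcripts were searched with BLAST 2.17.0+.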

Additional observations from a re-analysis of the deposited data

Results flagged for a closer look

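The response to H2O2 differed between genotypes, by the interaction term of the fit across all genes, for 3 of 41 members. Of these, 2 were positive, or 4.88% against 3.90% of all genes, and 1 was negative, or 2.44% against 6.28%. The shares were near or under the background. Slc25a48 had an interaction of -0.57 on the log2 scale (adjusted p = 6.91e-04), because its fall was larger in TβRII-/- cells, where the untreated level was 7.62 times that of TβRII flox/flox cells. Slc25a20 had an interaction of 0.51 (adjusted p = 0.0052), and its treated and untreated libraries were apart only in TβRII-/- cells. Slc25a13 had an interaction of 0.35 (adjusted p = 0.0254), and its adjusted p exceeded 0.05 in 6 of the 12 fits that left out 1 library. Groups of 3 libraries were too small for a search for single libraries that stand apart.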

How the results depend on the processing

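The direction of every member called at an adjusted p under 0.05 was the same under all alternatives that gave a value. Of 81 calls of members in 5 comparisons, 67 held throughout and 14 were lost under at least 1 alternative, each of the 14 also without 1 library; these stand beside the results above. Total counts of called members stayed within 1.5 times those reported, but for the 1 member at the study limits in the H2O2 response of TβRII flox/flox cells. By direction there were further exceptions. The 5 members lower in untreated TβRII-/- cells became 3 with DESeq2, a replicate block, only the groups compared or without replicate 1 of untreated TβRII flox/flox cells, and 2 with at least 10 counts in every library or without replicate 3 of untreated TβRII-/- cells. The 6 that fell with H2O2 in TβRII-/- cells became 10 without replicate 3 of untreated TβRII flox/flox cells. The 2 positive interactions became 1 with sums over transcripts and in 6 of the 12 fits without 1 library. Without 1 library the members with an adjusted p under 0.05 numbered 20 to 24 between untreated genotypes, 23 to 25 between treated ones, 13 to 17 and 12 to 17 for H2O2 in TβRII flox/flox and TβRII-/- cells, and 2 to 3 for the interaction, and those at the study limits 6 to 7, 9 to 11, 1 to 2 and 2 to 3. Some medians of the members moved by more than the spread between libraries. Without 1 library they were 0.12 to 0.21 between untreated genotypes, 0.20 to 0.29 between treated ones, -0.07 to 0.00 and -0.03 to 0.00 for H2O2 in the 2 genotypes and 0.06 to 0.12 for the interaction. With no filter they were 0.14 between untreated genotypes, 0.03 for H2O2 in TβRII-/- cells and 0.13 for the interaction, over 48 members. With at least 10 counts in every library they were 0.23 between treated genotypes and 0.01 for H2O2 in TβRII flox/flox cells, over 40 members, and for the latter 0.00 with DESeq2, with its size factors and with only the groups compared. With sums over transcripts they were 0.21 between treated genotypes and 0.05 for the interaction, and on protein-coding transcripts 0.19 between untreated genotypes and 0.12 for the interaction. The cause was not tested. Depth limits the 9 members that were not tested and Ucp3.

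The replicate numbers did not pair the libraries. The 18 correlations of same-numbered libraries across groups, over genes and after removal of the group means, ran from -0.101 to 0.058. With a replicate block, 20 members passed between untreated genotypes (17 higher and 3 lower), 24 between treated ones, 16 and 14 for H2O2 in TβRII flox/flox and TβRII-/- cells, and 3 for the interaction, with medians of 0.17, 0.29, -0.02, -0.02 and 0.10.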
